A study of Mus musculus with 2 samples.

Results

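Enah, Arhgef11, Ctnnd1, Tjp1, Cd44, Numb and Slk are genes whose transcripts are known to be spliced differently in epithelial and mesenchymal cells. The 7 genes were taken by name, with all 80 of their transcripts, from 43346 genes and 103639 transcripts quantified in the embryonic facial prominence of the mouse. In this family of genes a cell changes the protein without having to change the amount of RNA. Epithelial splicing regulatory proteins, encoded by Esrp1 and Esrp2, bind the precursor RNA in epithelia and favour one set of exons, while RBFOX2, QK, PTBP1 and other factors act on the same exons in mesenchyme. The exons encode short stretches of actin regulators, junction proteins and adhesion receptors. The facial prominence holds both kinds of cell, since surface ectoderm covers a mesenchyme derived largely from the neural crest.

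RNA above 200 nt in length was sequenced, as total RNA, from 2 pools of B6NCrl embryos at embryonic day 10.5, with male and female embryos mixed in each. Pool 1 came from 69 embryos and pool 2 from 51, and 10 ng of RNA went into each library. The labels gave no treatment, genotype change or control group, so there was no contrast to test, and all values describe these pools. Genes received 40059176 estimated counts in pool 1 and 39531700 in pool 2, of which the 7 genes held 17505 and 17176. Levels are in TPM, a unit of transcript abundance that corrects for transcript length and library size, and are given as mean ± SD with n = 2 pools. In bulk tissue, fewer cells that use a transcript and less of it per cell cannot be told apart.

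Markers of mesenchyme and epithelium were both present. All 12 mesenchyme markers reached a TPM of 1 in both pools, with a median of 54.5 TPM, as did all 12 epithelium markers, with a median of 13.4 TPM. Vim, an intermediate filament gene of mesenchyme, stood at 380.6 ± 17.0 TPM, and Krt18, a keratin of simple epithelia, at 84.7 ± 3.08 TPM. Markers of other cells were present as well, with medians of 77.9 TPM for 6 neuron markers, 2200 TPM for 5 erythroid markers, 21.5 TPM for 5 endothelium markers and 6.0 TPM for 5 macrophage markers. How much of each gene's transcripts came from each cell type was not tested.

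The exons on which the results turn are shown first, because each is a short block that is either joined into the messenger RNA or left out. The exon is in capitals and the 15 bases on either side, in lower case, belong to the neighbouring exons of a transcript that holds it. Sequences are from GENCODE M21 transcripts on GRCm38 (mm10) and read 5′ to 3′ along the transcript. The Enah exon of 63 bases lies at chr1:181911597-181911659 on the minus strand. The Arhgef11 exons lie at chr3:87695398-87695517 and chr3:87718229-87718258 on the plus strand. The Ctnnd1 exons lie at chr2:84612532-84612549, chr2:84605184-84605246 and chr2:84603188-84603274 on the minus strand. The Tjp1 exon lies at chr7:65314093-65314332 and the Numb exons at chr12:83825259-83825291 and chr12:83797197-83797343, all on the minus strand. The Cd44 exons are variable exons 5 and 10, counted in transcript order, at chr2:102842261-102842377 and chr2:102831330-102831536 on the minus strand. The Slk exon lies at chr19:47627648-47627740 on the plus strand.
Enah exon of 63 bases: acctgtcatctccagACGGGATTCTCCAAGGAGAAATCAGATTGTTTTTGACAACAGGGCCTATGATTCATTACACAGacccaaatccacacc
Arhgef11 exon of 120 bases: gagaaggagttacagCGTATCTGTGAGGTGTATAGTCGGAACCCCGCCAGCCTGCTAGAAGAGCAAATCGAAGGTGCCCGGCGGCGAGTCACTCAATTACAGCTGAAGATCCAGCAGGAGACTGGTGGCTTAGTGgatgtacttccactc
Arhgef11 exon of 30 bases: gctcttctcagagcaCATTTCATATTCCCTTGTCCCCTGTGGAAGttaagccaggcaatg
Ctnnd1 exon of 18 bases: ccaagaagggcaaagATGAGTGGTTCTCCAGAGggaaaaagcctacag
Ctnnd1 exon of 63 bases: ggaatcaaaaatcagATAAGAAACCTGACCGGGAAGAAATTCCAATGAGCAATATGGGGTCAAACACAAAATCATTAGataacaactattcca
Ctnnd1 exon of 87 bases: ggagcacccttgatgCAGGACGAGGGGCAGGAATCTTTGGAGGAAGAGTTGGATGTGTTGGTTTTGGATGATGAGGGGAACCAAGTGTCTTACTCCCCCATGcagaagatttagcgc
Tjp1 exon of 240 bases: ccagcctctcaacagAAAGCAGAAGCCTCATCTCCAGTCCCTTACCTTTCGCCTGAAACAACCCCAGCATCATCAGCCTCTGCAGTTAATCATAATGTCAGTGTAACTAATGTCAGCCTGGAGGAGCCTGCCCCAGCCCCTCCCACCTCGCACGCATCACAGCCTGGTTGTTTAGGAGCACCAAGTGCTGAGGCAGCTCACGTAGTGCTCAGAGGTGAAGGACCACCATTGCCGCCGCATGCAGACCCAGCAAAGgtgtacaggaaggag
Numb exon of 33 bases: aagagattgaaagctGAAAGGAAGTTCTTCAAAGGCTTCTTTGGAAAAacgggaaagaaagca
Numb exon of 147 bases: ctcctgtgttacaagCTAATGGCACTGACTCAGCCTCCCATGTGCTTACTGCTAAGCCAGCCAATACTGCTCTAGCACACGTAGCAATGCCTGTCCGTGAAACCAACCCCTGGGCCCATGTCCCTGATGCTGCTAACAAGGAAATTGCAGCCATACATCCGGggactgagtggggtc
Cd44 variable exon 5, of 117 bases: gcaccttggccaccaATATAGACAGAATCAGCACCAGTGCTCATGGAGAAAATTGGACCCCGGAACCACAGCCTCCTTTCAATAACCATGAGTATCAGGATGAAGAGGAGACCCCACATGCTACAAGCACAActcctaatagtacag
Cd44 variable exon 10, of 207 bases: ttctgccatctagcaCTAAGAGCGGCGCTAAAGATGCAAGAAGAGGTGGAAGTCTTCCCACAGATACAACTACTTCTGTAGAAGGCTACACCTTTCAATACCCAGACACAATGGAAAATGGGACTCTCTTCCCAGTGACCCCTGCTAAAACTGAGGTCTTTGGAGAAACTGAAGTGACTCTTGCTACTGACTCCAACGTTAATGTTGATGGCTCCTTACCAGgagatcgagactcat
Slk exon of 93 bases: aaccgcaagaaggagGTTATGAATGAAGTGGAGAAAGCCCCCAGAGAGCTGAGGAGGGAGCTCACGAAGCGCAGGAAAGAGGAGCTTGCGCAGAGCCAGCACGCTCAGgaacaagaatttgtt

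All of these exons are a whole number of codons long, so their length alone does not shift the reading frame. The Numb exon of 147 bases had TPM only in transcripts that are not classed as protein coding. Among the coding skipped exons of the 7 genes whose transcripts summed to at least 1 TPM, 27 of 29 were a whole number of codons long. Over all genes 48.0% of such exons were. The 29 are not independent, since they include every variable exon of Cd44, a gene near 2 TPM. Some had their only holder or their only skipper at 0 TPM in both pools, such as the Enah exons of 57 and 111 bases. A skipped exon here is an internal exon that some annotated transcripts of the gene hold and others splice across. The exons of 63 bases in Enah and 93 bases in Slk were named because they are known from epithelial-mesenchymal splicing, and the exon of 87 bases in Ctnnd1 to complete its family of inserts; all were chosen after their values were seen.

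At the level of the gene, the order was Ctnnd1, Numb, Enah, Tjp1, Arhgef11, Slk and Cd44. Ctnnd1 stood at 36.75 TPM in pool 1 and 37.37 in pool 2, and Numb at 33.07 and 34.95. Enah measured 25.57 and 25.4 TPM, Tjp1 18.67 and 19.31, and Arhgef11 13.39 and 13.6. Slk was lower, at 6.58 and 7.45 TPM, and Cd44 lowest, at 1.88 and 2.11 TPM from 199 and 202 estimated counts. No gene of the 7 was out of order in either pool. The deposited intervals of neighbours in this order did not meet, except those of Ctnnd1 and Numb, at 35.05 to 39.06 and 31.0 to 36.48 TPM in pool 1. The pools differed by 1.01-fold (Enah) to 1.13-fold (Slk) in gene TPM. None of the 7 was at least 2-fold apart between the pools. Of all genes that reached a mean of 1 TPM, 2.86% were at least 2-fold apart.

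**Figure D1:**
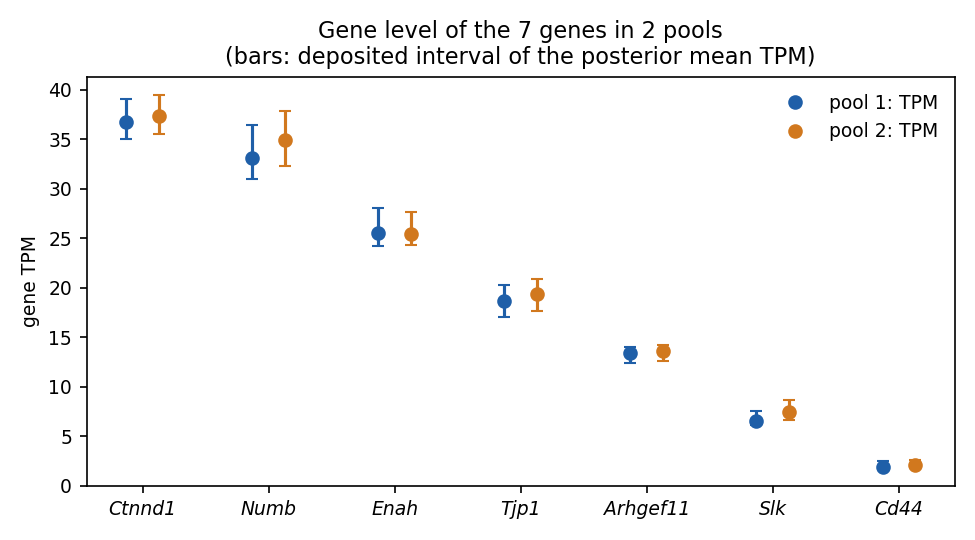
Gene TPM (vertical axis) of the 7 genes (horizontal axis) in pool 1 (blue) and pool 2 (orange). Points are the deposited TPM and bars the deposited interval of the posterior mean; the pools lie side by side at every gene, from Ctnnd1 near 37 TPM down to Cd44 near 2 TPM.

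Within each gene, TPM was shared among several transcripts. The leading transcript held a median of 46.7% of the gene's TPM over the 7 genes, and 68.8% over all genes that reached a mean of 5 TPM and have several annotated transcripts. The sets are not alike, since Cd44, whose own share is that median of 46.7%, did not reach 5 TPM. Annotated transcripts numbered 30 for Ctnnd1, 16 for Enah, 11 for Numb, 9 for Cd44, 5 each for Arhgef11 and Slk and 4 for Tjp1, beside a median of 5 over genes that have at least 2 and reached a mean of 1 TPM. Genes with as many transcripts as each had median leading shares of 26.5% (Ctnnd1, from 4 genes), 41.2% (Enah), 49.2% (Numb), 52.6% (Cd44), 70.2% (Arhgef11 and Slk) and 76.1% (Tjp1). The leading shares of Ctnnd1, Enah and Slk, 30.77%, 46.05% and 81.39%, were above these medians, and those of Numb, Cd44, Arhgef11 and Tjp1, 43.16%, 46.66%, 56.35% and 64.16%, were below. Of the 80 transcripts, 30 had a TPM of 0 in both pools, 19 of them in Ctnnd1.

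Not all of the RNA of these genes was annotated as coding. Coding transcripts made up 54.5% of Enah TPM in pool 1 and 54.8% in pool 2, and 55.2% and 63.2% of Numb TPM. The values were 78.5% and 74.4% for Tjp1, and 80.4% and 71.2% for Arhgef11. Ctnnd1 stood at 88.9% and 89.4%, Slk at 89.8% and 74.1%, and Cd44 at 100% and 95.7%. The median over protein coding genes that reached a mean of 1 TPM was 91.5% and 91.6%. The other transcripts carry retained introns, are annotated as substrates of nonsense-mediated decay (a pathway that degrades messages with an early stop codon), or are processed transcripts without an annotated coding part. TPM is per length, so short transcripts weigh more in these shares than in counts. By estimated counts the coding Enah-211 alone held 84.6% of Enah in pool 1 and 81.8% in pool 2. The coding Slk-201 alone held 98.3% and 97.1% of Slk.

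**Figure D2:**
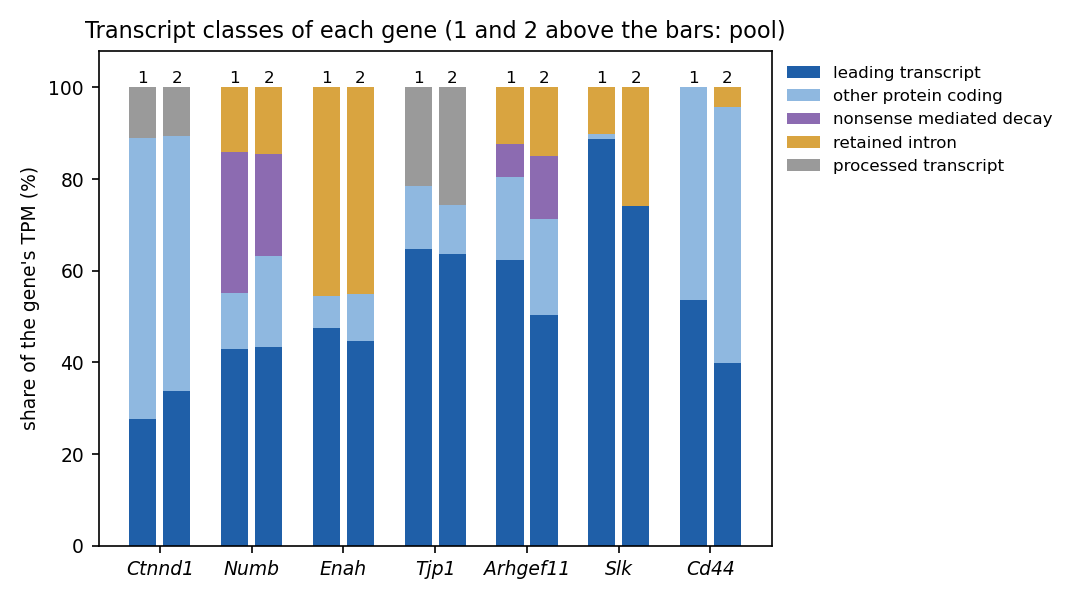
Share of each gene's TPM (percent, vertical axis) held by its leading transcript and by the other annotated classes, with 1 stacked bar per pool. Retained introns fill close to the same share of Enah in both pools, while Cd44-207 holds 53.53% of Cd44 in pool 1 and 39.79% in pool 2. The leading transcript is the one of highest mean share over both pools, which for Cd44 is Cd44-207.

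The leading transcript was the same in both pools for 6 of the 7 genes, all but Cd44, beside 91.0% of all genes that have at least 2 transcripts and reached a mean of 1 TPM. For the 6 genes that reached a mean of 5 TPM it was the same in 6, beside 93.8% over all genes of that level with at least 2 transcripts. For Ctnnd1, as for Cd44, the lead was not firm. The deposited intervals of Ctnnd1-202, its leader, and Ctnnd1-204 overlapped within each pool. Their posterior mean shares in pool 1 were 19.32% and 19.12%. Summing the absolute differences in share over a gene's transcripts and halving the sum gave a shift of 16.02 points for Ctnnd1, 15.69 for Slk, 14.23 for Cd44, 12.57 for Arhgef11, 9.36 for Numb, 8.16 for Enah and 4.08 for Tjp1. The shift was at least 10 points in 4 of the 7, and in 31.1% of all genes that have at least 2 transcripts and reached a mean of 1 TPM. The median shift was 12.6 points for the 7 genes and 5.78 points for that wider set.

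The deposited intervals, whose level is not given in the sources used here, show how firmly reads could be assigned to a transcript. Of the 23 transcripts here that averaged 1 TPM or more, the intervals of the pools were apart for 1, Enah-211, beside 7.84% of such transcripts over all genes. The TPM lay outside its own interval in either pool for 2 of the 23, Ctnnd1-203 and Ctnnd1-217, beside 3.9% over all genes. Exon inclusion, the share of TPM in transcripts that hold an exon among those that hold or skip it, was computed for each skipped exon. None of the 33 skipped exons with enough TPM differed by 10 points between the pools, beside 11.3% of such exons over all genes. The largest difference was 8.43 points, for a noncoding Numb exon, and the median was 2.77 points, beside 1.25 points over all genes. Both forms were present, with inclusion between 5% and 95% in at least 1 pool, for 25 of the 33 exons and for 50.4% of the exons of all genes. The 25 are not independent. They include every variable exon of Cd44, a gene near 2 TPM, whose exons 1 to 3 pass only through 0.11 TPM of Cd44-201 in pool 2. They also include the Ctnnd1 exons of 72, 153 and 536 bases, which a single transcript skips together.

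**Figure D3:**
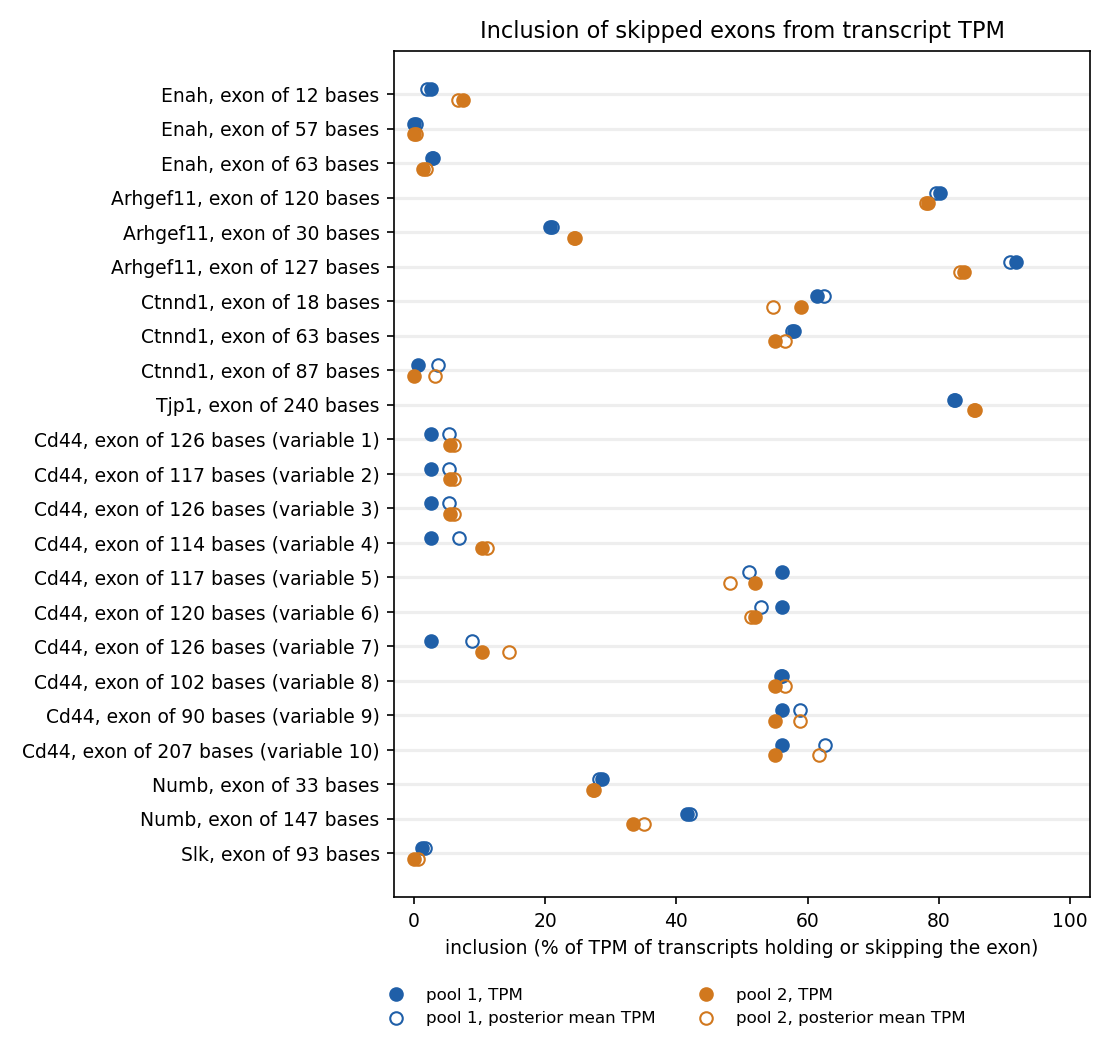
Inclusion of coding skipped exons named in the text (percent, horizontal axis; the Ctnnd1 exons of 72, 153 and 536 bases and the Enah exons of 111 and 843 bases are not drawn) in pool 1 (blue) and pool 2 (orange), from TPM (filled) and from posterior mean TPM (open). The Enah exons of 57 and 63 bases lie near 0, the exons of 30 bases in Arhgef11 and 33 bases in Numb between 20.8% and 28.7%, those of 18 and 63 bases in Ctnnd1 between 55.0% and 61.4%, and those of 120 bases in Arhgef11 and 240 bases in Tjp1 at 78.3% or more, all by TPM.

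Enah (ENSMUSG00000022995, chr1:181896384-182019990, minus strand) encodes Mena, which binds the growing ends of actin filaments and lets them lengthen in lamellipodia and at junctions. Its exon of 63 bases, known as exon 11a, adds 21 codons near the end of the protein and marks epithelial cells. The transcript Enah-202, which holds it, measured 0.38 TPM in pool 1 and 0.18 in pool 2, and the transcripts that skip it summed to 13.68 and 13.34 TPM. Inclusion was therefore 2.7% and 1.33% (2.02% ± 0.97). The leading transcript Enah-211, a form of 541 codons without the exon, measured 12.15 and 11.32 TPM, or 47.52% and 44.58% of the gene, and took 84.6% and 81.8% of its estimated counts. Its intervals, 11.5 to 12.3 TPM in pool 1 and 10.7 to 11.4 in pool 2, narrowly missed each other.

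The low inclusion of the Enah exon rests on transcripts that differ elsewhere too. Enah-211 is 11229 bases long and has 8016 bases, at a 3′ end of its own, that Enah-202 lacks. Among transcripts with 3′ ends within 100 bases of that of Enah-202, which summed to only 1.64 and 2.15 TPM, inclusion was 23.2% and 8.37%. The estimated counts of Enah-202 were 34.67 and 16.64. In addition, Enah-208, a retained intron transcript made of a single exon of 1890 bases, covers the exon of 63 bases together with intron on both sides. It measured 6.55 and 6.25 TPM, with 25.62% and 24.61% of the gene's TPM, from 311 and 295 counts. Its reads are counted here neither as inclusion nor as skipping.

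The Enah exon of 57 bases, known as the invasive insert INV of tumour cells, had a holder at 0 TPM in both pools. Enah-213, a retained intron transcript made of a single exon, covers it too. Enah-213 measured 0.67 and 0.92 TPM, from 104 and 142 counts, and enters here neither as inclusion nor as skipping. An exon of 12 bases had an inclusion of 2.67% and 7.55%, all from Enah-205. Among transcripts that share the 3′ end of Enah-205 within 100 bases, which summed to 1.64 and 2.15 TPM, its inclusion was 23.8% and 50.2%. The transcripts with the long exon of 843 bases, which gives the large neural form of Mena, summed to 0.39 TPM in pool 1 and 1.13 in pool 2. Those with its short version of 111 bases summed to 13.4 and 12.39. Most of this was Enah-211, at 12.15 and 11.32 TPM, which ends 8061 bases from Enah-205. Among transcripts that share the 3′ end of Enah-205, the short version came from Enah-202 and Enah-203. These measured 0.38 and 0.87 TPM in pool 1, and 0.18 and 0.89 in pool 2. Enah-205 carried most of the long exon, at 0.39 and 1.08 TPM, and its intervals, 0.0388 to 0.522 and 0.522 to 1.41, meet at the rounding and do not overlap in the deposited values. The retained intron form Enah-207 held a further 8.95% and 11.62% of the gene's TPM. The remaining 13 transcripts of Enah each held under 5%.

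The partners of Mena were abundant. Pfn1, the profilin that delivers actin monomers, stood at 1814.0 ± 6.59 TPM, Zyx, the zyxin that recruits Ena/VASP proteins, at 80.5 ± 1.65 and the relative Vasp at 49.4 ± 3.03. The relative Evl was lowest at 20.9 ± 0.827 TPM, below Enah itself at 25.5 ± 0.12 TPM. All 5 genes of this list were detected, and their median was 49.4 TPM beside 20.1 TPM over detected protein coding genes.

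Arhgef11 (ENSMUSG00000041977, chr3:87617559-87738034, plus strand) encodes PDZ-RhoGEF, which activates RhoA downstream of G proteins and plexins and binds ZO-1 at junctions. Its leading transcript Arhgef11-201 measured 8.34 TPM in pool 1 and 6.86 in pool 2, or 62.26% and 50.44% of the gene. Its exon of 120 bases, which encodes 40 codons, was held by transcripts of 10.74 and 10.65 TPM and skipped by 2.66 and 2.95 TPM. Inclusion was 80.1% and 78.3% (79.2% ± 1.3). The exon of 30 bases, or 10 codons, showed the opposite preference, at 20.8% and 24.5% (22.6% ± 2.6), and came from Arhgef11-202 alone, at 2.44 and 2.83 TPM. Arhgef11-202 holds the short exon and lacks the long one, and Arhgef11-201 the reverse. The same pair of transcripts thus enters both inclusion values, and their 3′ ends lie 2124 bases apart.

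Another Arhgef11 exon, of 127 bases, is not a whole number of codons. It was included at 91.8% and 83.8%, and the transcript that skips it, Arhgef11-205, is annotated for nonsense-mediated decay and measured 0.96 and 1.88 TPM. Its intervals, 0.291 to 1.99 and 0.894 to 3.1 TPM, overlapped. The retained intron form Arhgef11-203 added 1.44 and 1.91 TPM. The gene's partners included Rhoa, its substrate, at 202.3 ± 0.134 TPM, the semaphorin receptor Plxnb2 at 119.8 ± 4.43 and the related exchange factor Arhgef1 at 63.4 ± 2.74. The closest relative, Arhgef12, was the lowest of the 7 listed genes at 3.51 ± 0.177 TPM, below Arhgef11 at 13.5 ± 0.148 TPM.

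Ctnnd1 (ENSMUSG00000034101, chr2:84600071-84650765, minus strand) encodes p120 catenin, which binds the cadherin tail and keeps cadherins at the cell surface. Its proteins are numbered by their start codon. The full-length isoform 1 is typical of mesenchymal and motile cells, and isoform 3, which begins later, of epithelia. Coding transcripts with the first start codon summed to 21.89 TPM in pool 1 and 22.0 in pool 2, which was 67.0% and 65.8% of the gene's coding TPM (66.4% ± 0.831). Those that begin at codon 102, which give isoform 3, summed to 9.05 and 10.86 TPM, or 27.7% and 32.5% (30.1% ± 3.39). Both starts were therefore present, and the full-length one led in each pool. A start at codon 324 held 5.27% and 1.65%. A start at codon 55 was listed at 0 in both pools, and at 6.81% and 4.63% by posterior mean TPM.

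The first start codon of Ctnnd1 lies in an exon of 289 bases. Transcripts with this exon, at 64.8% and 64.2% of those that hold or skip it, are the ones that begin at the first codon. Another upstream noncoding exon, of 118 bases, was included at 13.4% and 16.8%. Exons of 72, 153 and 536 bases were each included at 94.9% and 98.4%, and a single transcript, Ctnnd1-206, skipped them. It is the transcript that starts at codon 324.

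Both forms of 2 Ctnnd1 inserts were also present. The exon of 63 bases near the end of the protein, called exon A, was included at 57.9% and 55.0% (56.5% ± 2.03). It is held by 20 transcripts and skipped by 7, but most of both sets had a TPM of 0 in both pools. The exon of 18 bases, called exon C, which adds 6 codons inside the armadillo repeats, was included at 61.4% and 59.0% (60.2% ± 1.68). The exon of 87 bases, called exon B, was included at 0.546% and 0%. The most abundant transcripts that hold and skip exons A and C, Ctnnd1-204 and Ctnnd1-202, also differ in their 3′ ends, which lie 712 bases apart.

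The single transcripts of Ctnnd1 had wide deposited intervals, and no interval was computed for the sums above. Ctnnd1-202, which begins at the first codon and lacks exons A and C, measured 10.19 and 12.63 TPM, with intervals of 4.15 to 10.6 and 7.84 to 14.2. Ctnnd1-204, the form from codon 102 with exons A and C, measured 8.85 and 10.86 TPM, with intervals of 4.82 to 9.25 and 5.61 to 10.9. Ctnnd1-203, from the first codon with both inserts, stood at 4.4 and 5.39 TPM, and in pool 1 lay above its own interval of 0.499 to 3.62. Ctnnd1-223, from the first codon with exon C and without exon A, stood at 4.39 and 3.98 TPM. Ctnnd1-217 was at 2.91 TPM in pool 1 and at 0 in pool 2, where its interval of 3.2e-05 to 3.55 overlapped that of pool 1, 0.679 to 6.41. Ctnnd1-217 and Ctnnd1-203 have the same coding length of 938 codons. The processed form Ctnnd1-230 held 5.43% and 7.2% of the gene.

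**Figure D4:**
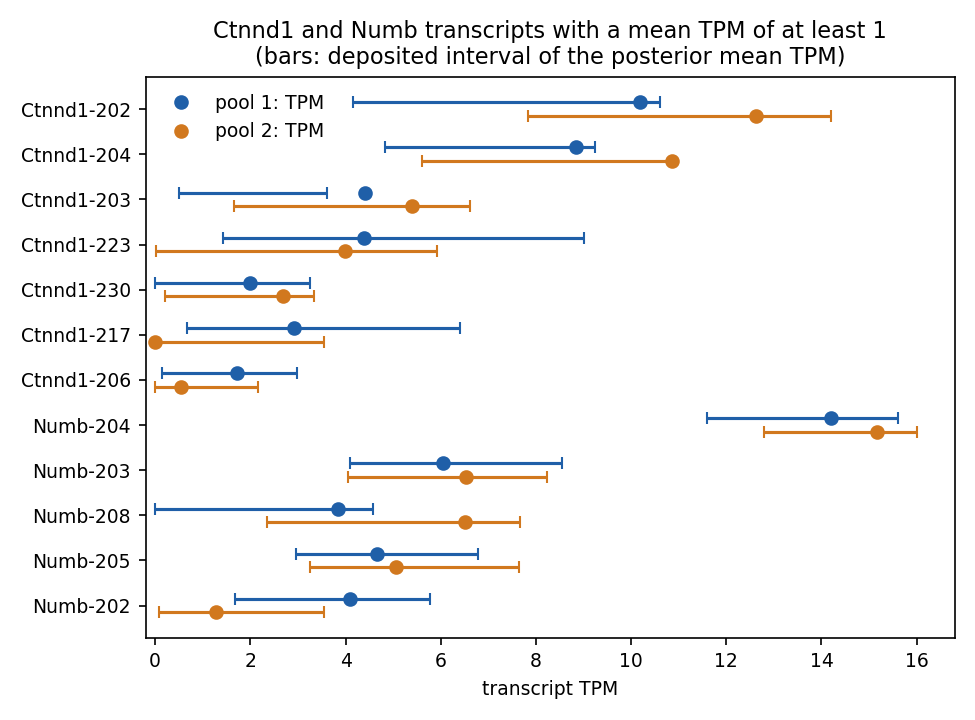
TPM (horizontal axis) of the Ctnnd1 and Numb transcripts with a mean TPM of at least 1 in pool 1 (blue) and pool 2 (orange), with bars for the deposited interval of the posterior mean. The intervals of the pools overlap for every transcript shown, and Ctnnd1-203 in pool 1 lies to the right of its own bar.

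The listed partners and relatives of Ctnnd1 lay on both sides of its own 37.06 TPM. Ctnnb1, which encodes beta-catenin, measured 408.8 ± 21.3 TPM, Ctnna1, which encodes alpha-catenin, 153.8 ± 0.453, and Cdh11, a cadherin of mesenchyme, 91.0 ± 11.8. Cdh2, at 76.5 ± 1.14 TPM, was also above Ctnnd1. Below it were Cdh3 at 21.6 ± 0.0919, the epithelium marker Cdh1 at 19.5 ± 1.2 and Pkp4 at 13.9 ± 0.771 TPM. The neural relative Ctnnd2 was lowest at 3.71 ± 0.276 TPM, and all 8 genes of the list were detected.

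Tjp1 (ENSMUSG00000030516, chr7:65296165-65527781, minus strand) encodes ZO-1, the scaffold under tight junctions. Its exon of 240 bases encodes the alpha domain of 80 codons, and the form with it is the more widespread one, while the form without it is known from endothelium and some specialised epithelia. Tjp1-202, which holds the exon, measured 12.08 TPM in pool 1 and 12.28 in pool 2. Tjp1-201, which skips it, measured 2.56 and 2.08 TPM. Inclusion was 82.5% and 85.5% (84.0% ± 2.12). The holder's intervals, 11.1 to 12.5 and 11.4 to 12.7 TPM, lay well above those of the skipper, 1.89 to 3.18 and 1.53 to 2.61, in both pools. These transcripts also differ by 767 other bases present only in the holder and 60 present only in the skipper, with 3′ ends 543 bases apart. Only this pair carries the estimate.

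The rest of Tjp1 came from Tjp1-203, a processed transcript of 699 bases. It held 21.56% and 25.64% of the gene's TPM, 4.02 and 4.95 TPM, from only 64.0 and 78.3 estimated counts. Because TPM is per length, a short transcript with few reads weighs as much as a long one with many. By estimated counts the leading Tjp1-202 held 82.5% in pool 1 and 84.7% in pool 2. Of the gene's partners, Gja1, which encodes connexin 43, stood at 204.7 ± 3.6 TPM, the tight junction claudin Cldn6 at 62.9 ± 1.47, and F11r, which encodes junctional adhesion molecule A, at 30.7 ± 1.51. Tjp3, the relative found in epithelia, was lowest at 5.02 ± 0.297 TPM.

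Cd44 (ENSMUSG00000005087, chr2:102811141-102901665, minus strand) encodes the hyaluronan receptor CD44. Its standard form, which skips all 10 variable exons, is typical of mesenchyme, and forms with variable exons of epithelia. The standard form, Cd44-203, measured 0.82 TPM in pool 1 and 0.91 in pool 2. Cd44-207, which holds variable exons 5, 6, 8, 9 and 10, measured 1.0 and 0.84 TPM. The larger of the pair was Cd44-207 in pool 1 and Cd44-203 in pool 2, with 53.53% and 39.79% of the gene for Cd44-207 and 43.65% and 43.16% for Cd44-203. Their intervals overlapped within each pool: in pool 1 they were 0.63 to 1.19 and 0.375 to 1.14 TPM, and in pool 2 0.506 to 1.06 and 0.469 to 1.18. No order between them can be read at this depth, which was 131.61 and 109.19 counts for Cd44-207 and 59.65 and 65.84 for Cd44-203.

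The variable exons of Cd44 therefore fell into 2 sets. Exons 8, 9 and 10 were included at 56.1% in pool 1 and 55.0% in pool 2, and exons 5 and 6 at 56.1% and 52.0%. Exons 1, 2 and 3 were included at 2.67% and 5.45%, and exons 4 and 7 at 2.67% and 10.4%. By posterior mean TPM exon 10 stood at 62.7% and 61.7%. Cd44-201, which holds every variable exon, measured only 0.05 and 0.11 TPM, and Cd44-208, which begins its variable part at exon 4, 0 and 0.1 TPM. Cd44-207 and Cd44-203 also differ at their 3′ ends, which lie 1406 bases apart, and Cd44-207 has 1990 bases besides variable exon 10 that Cd44-203 lacks. Among transcripts with 3′ ends within 100 bases of each other, a choice that leaves Cd44-207 out, the inclusion of exon 6 was 0% in pool 1 and 9.35% in pool 2. For exon 10 this choice left a single holder, Cd44-202, at 0 TPM in both pools, and a single skipper, Cd44-203. The 0% that it gave for exon 10 in both pools therefore says nothing about Cd44-207.

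**Figure D5:**
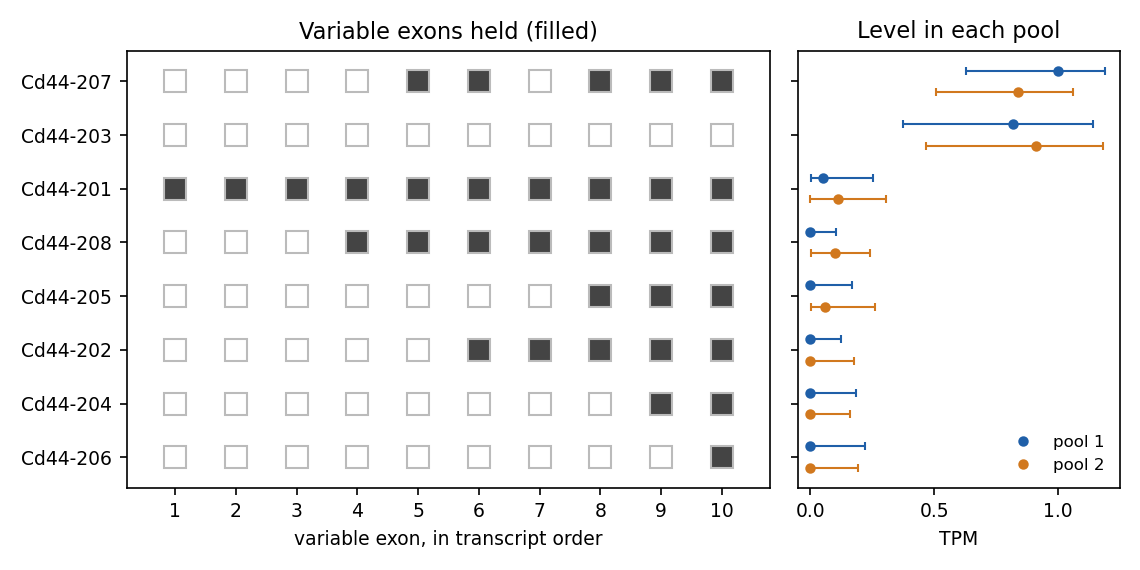
Left, which of the 10 variable exons (horizontal axis) each coding Cd44 transcript holds (filled squares); right, its TPM in pool 1 (blue) and pool 2 (orange) with the deposited interval of the posterior mean. Cd44-207 and the standard form Cd44-203 lie between 0.82 and 1.0 TPM in both pools with overlapping intervals, and the other forms are at 0.11 TPM or less.

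The intracellular partners of Cd44 were higher than the receptor itself. Of the 7 listed partners and relatives, Rdx and Msn, the ERM proteins radixin and moesin that tie CD44 to actin, stood at 109.0 ± 2.06 and 84.2 ± 9.62 TPM. The hyaluronan receptor Hmmr stood at 49.7 ± 0.219 TPM. The hyaluronan synthase Has3 was lowest, at 0.14 and 0.04 TPM, and 5 of the 7 were detected.

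Numb (ENSMUSG00000021224, chr12:83794034-83921934, minus strand) encodes an endocytic adaptor that restrains Notch signalling. It comes in 4 classic forms, set by an insert in the phosphotyrosine binding domain and by another in the proline-rich region. The domain insert is the exon of 33 bases, or 11 codons, and the proline-rich insert the exon of 147 bases, or 49 codons. Numb-204, the form of 593 codons without either, led the gene at 14.21 TPM in pool 1 and 15.16 in pool 2, with 42.97% and 43.36% of its TPM. Inclusion of the exon of 33 bases was 28.7% and 27.4% (28.1% ± 0.893). The holders behind these close values changed places. In pool 1 Numb-202, classed as a substrate of nonsense-mediated decay, stood at 4.09 TPM and Numb-208 at 3.84. In pool 2 Numb-202 stood at 1.28 TPM and Numb-208 at 6.52. Numb-208, the most abundant holder by mean TPM, ends 14072 bases from Numb-204.

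The exon of 147 bases was included at 41.6% and 33.4% (37.5% ± 5.8), but none of it came from transcripts of the protein coding class. All of its TPM, 10.13 and 7.81, belonged to Numb-203 and Numb-202, which are classed as substrates of nonsense-mediated decay. The coding transcripts that hold it, Numb-207 and Numb-210, were at 0 in both pools. Numb-203 measured 6.04 and 6.53 TPM and Numb-202 4.09 and 1.28, with overlapping intervals of 1.67 to 5.77 and 0.0843 to 3.54. An inclusion taken over coding transcripts alone was thus 0%, so the value depends on which classes are counted.

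Numb-208, a coding fragment of 644 bases that holds the exon of 33 bases, measured 3.84 and 6.52 TPM from 55.5 and 93.6 counts, with intervals of 0.00152 to 4.57 and 2.34 to 7.66. The retained intron form Numb-205, of 441 bases, held 14.13% and 14.51% of the gene from 42.4 and 45.7 counts. An upstream noncoding exon of 85 bases was included at 56.0% and 47.6%. Among the 6 partners and relatives, all detected, were Ap2a1, a subunit of the clathrin adaptor that Numb binds, at 63.8 ± 1.22 TPM, and the ubiquitin ligases Mdm2 at 51.9 ± 2.79 and Itch at 48.7 ± 0.099 TPM. The relative Numbl was lowest at 12.5 ± 0.0212 TPM.

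Slk (ENSMUSG00000025060, chr19:47579678-47645246, plus strand) encodes a STE20-like kinase that phosphorylates ERM proteins and acts in focal adhesion turnover. Slk-201, of 1202 codons, measured 5.83 TPM in pool 1 and 5.52 in pool 2. Slk-202, which adds the exon of 93 bases or 31 codons, measured 0.07 and 0 TPM, from 7.65 and 0 estimated counts. Inclusion was 1.19% and 0%. Only this pair carries the estimate, and Slk-201 has 3132 bases that Slk-202 lacks, with 3′ ends 2791 bases apart.

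The share of Slk-201 was 88.71% in pool 1 and 74.08% in pool 2, while short retained intron transcripts held more in pool 2. Slk-203, of 792 bases, measured 0.47 and 1.13 TPM from only 8.64 and 20.56 estimated counts, with overlapping intervals of 0.118 to 1.15 and 0.448 to 1.96. By estimated counts Slk-201 held 98.3% and 97.1%. Its 3 listed partners and relatives were Ldb1, which binds Slk, at 82.7 ± 0.891 TPM, its ERM substrate Ezr at 44.8 ± 2.32 and the related kinase Stk10 at 2.16 ± 0.467 TPM.

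Splicing regulators known from epithelia and from mesenchyme were both present. Whether they act on the exons measured here was not tested. All 27 listed splicing regulators were detected, with a median of 27.3 TPM. Esrp1 measured 13.19 TPM in pool 1 and 11.47 in pool 2, and Esrp2 8.81 and 6.27. Factors found in mesenchyme and elsewhere were higher: Rbfox2 stood at 32.0 ± 1.09 TPM, Qk at 27.3 ± 1.16 and Mbnl1 at 44.7 ± 1.96. The widely expressed Ptbp1 reached 346.5 ± 3.25 TPM. The highest 3 were Hnrnpf at 736.5 ± 7.58, Hnrnph1 at 510.7 ± 1.85 and Hnrnpm at 467.8 ± 0.672 TPM, and the neural Nova2 was lowest at 1.3 ± 0.318 TPM. Esrp2 was 1.4-fold and Esrp1 1.15-fold higher in pool 1. None of the 27 was 2-fold apart.

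A further 18 genes known for splicing between epithelia and mesenchyme were all detected, with a median of 41.0 TPM, led by the small GTPase Rac1 at 251.5 ± 1.49, the actin-binding Cttn at 166.5 ± 3.3 and Ralgps2 at 72.3 ± 3.1 TPM. The junction scaffold Magi1 was lowest at 9.39 ± 0.29 TPM. Of 16 of them with several transcripts, 15 had the same leading transcript in both pools, and 9 shifted by at least 10 points, with a median shift of 10.3 points. These counts stand beside the 91.0% and 31.1% over genes with at least 2 transcripts given above.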

How the data were processed

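Total RNA was sequenced from 2 pools of facial prominence tissue, which form 1 group. Expected counts and TPM per gene and per transcript were deposited by the authors, with posterior mean estimates and an interval whose level is not given in the sources used here. For every transcript the authors also gave its percent share of the gene. Per the labels and the file headers, values refer to mm10 and the GENCODE M4 annotation, without normalization of the counts; which aligner and quantifier were run, and whether strand was used, is not given in the sources used here. Names, classes and exons came from GENCODE M21 on GRCm38, in which all 80 transcripts had an entry of the same length. Transcripts that only M21 holds were not quantified.

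Inclusion was the TPM of transcripts holding an exon over that of transcripts holding or splicing across it, for exons with a sum of at least 1 TPM. Fold differences used log2(TPM + 0.1). Estimates came from transcript models, and no junction reads were used. No test was made, since there was 1 group, and SDs measure the spread between 2 pools. Calculations used Python 3.11.15, pandas 2.3.3 and numpy 2.4.6. For alternative scalings, expected counts were rounded to whole numbers and scaled with edgeR 4.0.16 (TMM) or DESeq2 1.42.0. The exon functions were tested on simulated data.

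Named were all 7 genes, their transcripts with a mean share of at least 5%, exons with inclusion between 5% and 95% in either pool, the highest 3 and lowest 1 genes of each list, and Esrp1, Esrp2, Rbfox2, Ptbp1, Mbnl1 and Qk. Other exons or transcripts, and the rest of the Ctnnd1 partner list, were named for completeness after their values were seen. For the cell type marker lists and the list of regulators, only some of these are printed. Members, lists and thresholds were chosen with earlier results of these data known.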

Additional observations from a re-analysis of the deposited data

How the results depend on the processing

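The count of genes with the same leading transcript (6) and that of genes 2-fold apart (0) were the same under each alternative run: posterior mean shares, coding transcripts only, or a minimum of 0.5 TPM for the first, and TMM or DESeq2 scaling, a pseudocount of 1 or a fold of 1.5 for the second. By posterior mean, gene TPM was 26.02 for Enah, 13.28 for Arhgef11 and 2.17 for Cd44, and the leading share 24.57% for Ctnnd1, 63.03% for Tjp1 and 40.89% for Numb. Over coding transcripts only, the leading share was 84.27% for Enah, 74.08% for Arhgef11, 84.01% for Tjp1, 73.22% for Numb and 99.41% for Slk. As a share of expected counts, an alternative chosen after seeing the data, it was 83.23% for Enah, 64.8% for Arhgef11, 83.59% for Tjp1, 60.1% for Cd44, 59.24% for Numb and 97.73% for Slk. The first start codon of Ctnnd1, whose alternatives were also chosen after seeing the data, held 63.18% by posterior mean. Over coding transcripts only, exon inclusion was 74.08% and 25.92% for the Arhgef11 exons of 120 and 30 bases, 62.04% and 52.82% for the Ctnnd1 exons of 18 and 63 bases, and 26.78% and 0% for the Numb exons of 33 and 147 bases. Variable exon 10 of Cd44 stood at 62.21% by posterior mean and at 51.47% with transcripts under 0.5 TPM left out. That filter removed Enah-202, the only holder of the Enah exon of 63 bases, so the 0% it left for this exon was fixed. Among transcripts with a shared 3′ end, also chosen after seeing the data, that Enah exon stood at 15.77%. Variable exon 10 of Cd44 stood at 0% there, because the only holder left was at 0 TPM in both pools. The causes were not tested. Over all exons tried, inclusion moved by more than the spread between the pools in 4 and by less in 23 by posterior mean, in 9 and 18 over coding transcripts only, in 9 and 18 without transcripts under 0.5 TPM, and in 13 and 9 among transcripts with a shared 3′ end. Of these, the Numb exon of 85 bases stood at 74.45% over coding transcripts and 73.38% with a shared end. The Arhgef11 exon of 127 bases stood at 100% over coding transcripts, a fixed value, since its only skipper is not of the coding class. With a shared end the Enah exon of 12 bases stood at 37.01%, the Ctnnd1 exons of 72, 153 and 536 bases at 92.69%, and Cd44 variable exons 6, 8 and 9 at 4.67% to 7.48%. Some of the counts above were fixed in advance. Over coding transcripts only, no Cd44, Tjp1 or Slk exon could move, since all their holders and skippers are coding. The filter at 0.5 TPM removed every holder of Cd44 variable exons 1, 2, 3, 4 and 7, so their 0% was fixed too. With a shared end, the Ctnnd1 exons of 18 and 63 bases kept all their transcripts and could not move. With 2 pools, each value left after leaving 1 out is that of the other pool, as printed in the report. No paired analysis was possible because the series holds 1 group. Few reads limit some estimates: Cd44 had 199 and 202 counts, and short Slk transcripts under 25.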
